A study of Bombus lucorum with 81 samples.

Results

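LOC100649715 and LOC100649549 are 2 of the 10581 protein-coding genes in a count table of the bumblebee Bombus lucorum, and both carry the description mucin-5AC isoform X1. They lie on different contigs of the genome of the related species Bombus terrestris. The pair was selected on its levels in these same bees, since both genes were known to be high in a few animals, so its levels are given as a description and carry no test. The study behind the table asked how gene expression in workers changes along a mountain slope. It sequenced poly-A RNA from 81 wild workers caught in summer at 16 sites in the German Alps, with 1 library per bee. The tissue was thorax and abdomen, and head and gut had been removed. By elevation the lowland belt had 6 sites (30 bees), the mid-elevation belt 5 (25 bees) and the highland belt 5 (26 bees). Sites gave 5 bees each except 2 highland sites, H6 with 9 bees and Wmb5 with 2. All bees were untreated, and neither their age nor their colony is given in the labels. The median library had 26082949 counted reads, and the range over bees was 15700759 to 33784279.

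Mucins are large secreted or membrane-bound proteins with long stretches rich in serine and threonine that carry dense O-linked sugar chains. They form slippery, hydrated coats over epithelia, and in insects mucin-like proteins occur in the lining of the gut, in glands, in tracheae and in the outer layers of the developing cuticle. The name mucin-5AC comes from a gel-forming mucin of the human airway and stomach, and the name alone does not give the role of the bee genes.

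LOC100649715 spans 10003 bases on the minus strand and has 4147 bases of exon. LOC100649549 spans 21091 bases on the minus strand and has 10181 bases of exon. Both were low in most bees and both passed the filter on low counts that left 9475 genes. Levels are given as CPM, the count of a gene scaled to the size of its library. The median bee had 1.13 CPM of LOC100649715, from 27 reads, and 0.97 CPM of LOC100649549, from 24.17 reads. With CPM also divided by the kilobases of exon (RPKM), the medians were 0.273 for LOC100649715 and 0.0952 for LOC100649549. Neither gene was at 0 in any bee, and the smallest counts were 5 for LOC100649715 and 4.5 for LOC100649549. Values near the median thus rest on few reads and are imprecise, whereas the highest bee had 2051 reads of LOC100649715 and 1083.25 reads of LOC100649549.

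A bee is called high in a gene where its CPM is at least 5 times the median of that gene over the 81 bees, which is 5.66 CPM for LOC100649715 and 4.85 CPM for LOC100649549. On this rule 8 bees were high in LOC100649715 and 9 in LOC100649549. Of these, 6 bees were high in both genes, 11 in at least 1 gene, and 70 in neither. The 8 bees high in LOC100649715 held 76.1% of its summed CPM over all bees, and the 9 bees high in LOC100649549 held 65.2%. The 4 highest bees were the same for both genes and held 63.8% and 49.2% of the summed CPM of LOC100649715 and of LOC100649549. In variance of log2 CPM over bees the genes ranked 270 and 365 of 9475.

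H4 bee 1, from a mid-elevation site, was the highest bee in both genes, with 70.4 CPM of LOC100649715 and 37.2 CPM of LOC100649549. Wma3 bee 3 had 56.3 and 24.1 CPM of the same 2 genes. H4 bee 3 had 55.5 and 22.8 CPM, and Wmb3 bee 4 had 43.4 and 25.8 CPM. These 4 mid-elevation bees stood well apart, since the next bee had 14.7 CPM of LOC100649715. The other bees high in both genes came from the lowland, Wmb1 bee 1 with 14.7 CPM of LOC100649715 and 7.71 CPM of LOC100649549, and H2 bee 5 with 12.5 and 8.47 CPM.

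High in LOC100649715 only were Wma2 bee 4, with 9.59 CPM of that gene and 4.52 CPM of LOC100649549, and Wma3 bee 2, with 6.82 and 2.02 CPM. High in LOC100649549 only were H6 bee 6, with 6.8 CPM of that gene and 2.77 CPM of LOC100649715, Wmb1 bee 5, with 6.52 and 2.17 CPM, and Wmb2 bee 4, with 6.22 and 4.87 CPM. Wma2 bee 4 and Wmb2 bee 4 were also the bees just below the threshold of the gene in which they were not called, so only Wma3 bee 2, H6 bee 6 and Wmb1 bee 5 differed clearly between the genes. Among the 70 bees high in neither gene, LOC100649715 lay between 0.211 and 3 CPM with a median of 0.939, and LOC100649549 lay between 0.15 and 2.78 CPM with a median of 0.898.

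**Figure D1:**
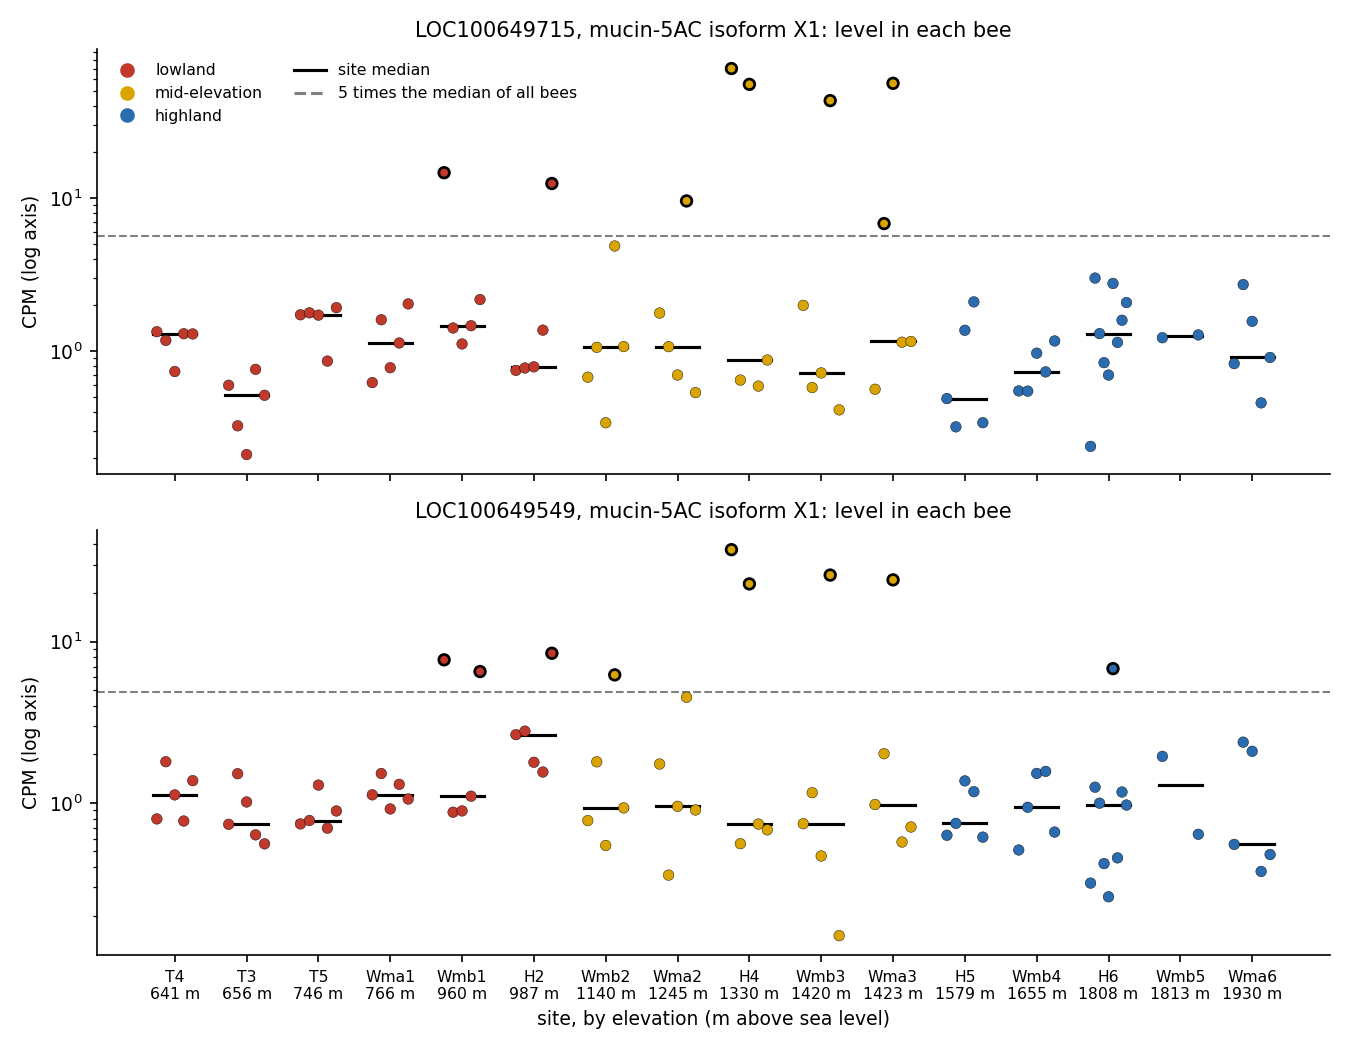
CPM (log axis) of LOC100649715 (upper panel) and LOC100649549 (lower panel) in each of 81 bees, by site in order of elevation, with points coloured by belt, thick outlines for bees called high, black bars for site medians and a dashed line at 5 times the median of all bees. The 4 highest points of both panels are the same mid-elevation bees, and all other bees of their sites lie among the bulk except Wma3 bee 2.

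Per length of exon, LOC100649715 was 3.62 to 5.97 times LOC100649549 in the 6 bees high in both. The median of this ratio was 4.66 in those bees. In the 70 bees high in neither gene the ratio ran from 0.511 to 7.37 with a median of 2.73. The 6 bees were chosen on the levels of both genes, and in most of the 70 bees both genes rest on few reads, which makes the ratio imprecise. Why the range was narrower in the 6 bees was not tested. Over the 11 bees high in at least 1 gene it ran from 0.818 in Wmb1 bee 5 to 8.3 in Wma3 bee 2, the highest of all 81 bees.

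In order of elevation, the 4 lowest sites, at 641 to 766 m, held no bee high in either gene. Each of the next 7 sites, from Wmb1 at 960 m to Wma3 at 1423 m, held at least 1 such bee. Of the 5 highland sites only H6, at 1808 m and with the largest number of bees, held 1. By belt, bees high in at least 1 of the genes were 3 of 30 in the lowland, 7 of 25 at mid-elevation and 1 of 26 in the highland. Bees high in both were 2 in the lowland, 4 at mid-elevation and 0 in the highland. According to the site table of the study, livestock grazed every mid-elevation site but only 3 lowland and 1 highland site. At mid-elevation, belt and grazing thus cannot be told apart. In the lowland all 3 bees high in at least 1 gene came from the grazed sites Wmb1 and H2. The grazed sites Wma1 in the lowland and Wmb4 in the highland held 0 such bees. Plant richness was 49 to 78 (median 58) at the 8 sites with a bee high in at least 1 gene. At the 8 sites without one it was 29 to 54 (median 44.5). The parts of grazing and of plant richness were not tested. Of the 11 bees high in at least 1 gene, 10 came from grazed sites, as did all 6 high in both, where grazed sites gave 45 of the 81 bees. No site had more than 2 high bees, and at H4, the only site with 2 bees high in both genes, the other 3 bees reached at most 0.875 CPM of LOC100649715 and 0.739 CPM of LOC100649549.

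The bulk of bees did not follow the same order. Medians of LOC100649715 were 1.24 CPM for lowland bees, 1.07 CPM for mid-elevation bees and 1.05 CPM for highland bees. Those of LOC100649549 were 1.11, 0.931 and 0.843 CPM in the same order of belts. Means were 1.98 ± 3.2, 10.5 ± 20.9 and 1.2 ± 0.779 CPM for LOC100649715 (SD, n = 30, 25 and 26 bees), where the mid-elevation value includes the 4 highest bees. For LOC100649549 they were 1.83 ± 2.03, 5.5 ± 10.2 and 1.19 ± 1.28 CPM. Site medians ran from 0.49 CPM at H5 to 1.73 CPM at T5 for LOC100649715, and from 0.553 CPM at Wma6 to 2.65 CPM at H2 for LOC100649549. At H2 the 4 bees that were not high lay between 1.55 and 2.78 CPM of LOC100649549, above its median over all bees.

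Across the 81 bees, log2 CPM of the genes had a Pearson correlation of 0.845, where bees share sites and their libraries differ in depth. The value was 0.87 after the mean of each site had been taken off. Without the 11 bees high in either gene it was 0.377, so its size rests largely on those bees.

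**Figure D2:**
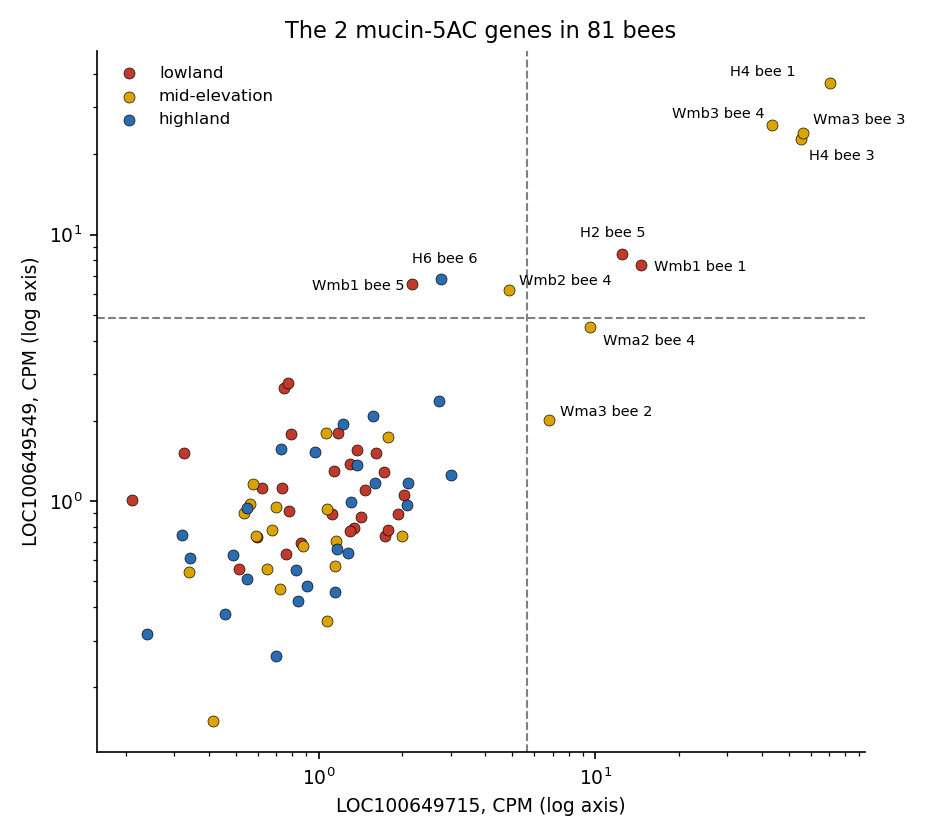
CPM of LOC100649549 against CPM of LOC100649715 (both log axes) in 81 bees, coloured by belt, with dashed lines at the 2 thresholds and names at the 11 bees high in at least 1 gene. The 6 bees high in both fill the upper right corner, and the 4 highest are mid-elevation bees.

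The genes most like the pair were found by Pearson correlation of log2 CPM over the 81 bees. Over all tested genes the median correlation was -0.009 with LOC100649715 and -0.012 with LOC100649549. There were 110 genes at 0.5 or more with LOC100649715 and 105 with LOC100649549, and 91 genes reached this value with both. The lists of the 10 most like genes shared 6 genes beside the members themselves. These correlations describe the same few bees over again, and nothing about shared function or control follows from them.

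LOC100644036, described as protein Skeletor isoforms B/C after a Drosophila protein of the spindle matrix, was the gene most like LOC100649715, with r = 0.884, and the second most like LOC100649549, with r = 0.819. It had 80.9 CPM in H4 bee 1, 51.3 CPM in Wmb3 bee 4, 48.9 CPM in Wma3 bee 3 and 45.7 CPM in H4 bee 3, against a median of 5.51 CPM over all bees. In Wmb1 bee 1 and H2 bee 5 it had 23 and 26.8 CPM. All 6 bees high in both mucin-5AC genes were above the 70 bees high in neither, which reached at most 14.5 CPM. Over the 73 bees not high in LOC100649715 its correlation with that gene was 0.7, the highest of the genes named here, and the next was 0.582 for LOC100652307.

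LOC100652307, described as serine-rich adhesin for platelets after a bacterial surface protein, had r = 0.817 with LOC100649715 and 0.752 with LOC100649549. Its levels were 13.2 CPM in H4 bee 1, 11.5 CPM in Wmb3 bee 4 and 8.28 CPM in Wma3 bee 3, against a median of 0.505 CPM. LOC100645774, described as toll-like receptor Tollo, belongs to a family of receptors that act in insect immunity and in the patterning of epithelia. It had r = 0.802 with LOC100649549 and 0.694 with LOC100649715. Its levels were 8.64 CPM in H4 bee 1, 6.3 CPM in Wmb3 bee 4 and 6.21 CPM in Wma3 bee 3, and its median was 0.233 CPM. Both genes were also raised in Wmb1 bee 5, with 3.26 CPM of LOC100652307 and 2.75 CPM of LOC100645774.

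The remaining genes most like the pair have no informative description. LOC100644011, LOC100645585, LOC100643275 and LOC100648048 were among the 10 most like both members, with correlations of 0.731 to 0.814 with LOC100649549. LOC100649829, LOC100642572 and LOC100644244 were among those of LOC100649715 only. LOC100651046 and LOC100650058 were among those of LOC100649549 only. LOC100650058 had 192 to 1290 CPM in the 6 bees high in both and 0 to 40.9 CPM in the 70 bees high in neither, where its median was 0.108 CPM. It was 5 or more times its own low median in 24 bees, 14 of them high in neither mucin-5AC gene.

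LOC100649829 is also the next gene on the contig of LOC100649715, 11240 bases beyond its end and on the same strand. It had 44.5 CPM in H4 bee 1, 44.3 CPM in Wma3 bee 3 and 40.5 CPM in H4 bee 3, against a median of 4.96 CPM, with r = 0.837. The gene before LOC100649715, LOC100649396, lies only 1870 bases away and had r = 0.025. Of the other 4 neighbours, LOC100650059 had r = 0.61 and LOC100649948, LOC100646638 and LOC110119983 had between -0.03 and 0.215. Around LOC100649549 the neighbours LOC100652204, LOC100649668, LOC100642894, LOC100652086 and LOC100642258 had correlations between -0.279 and 0.416. LOC100642616, which overlaps LOC100649549 on the opposite strand, had r = 0.13, and reads had been counted by strand.

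A second view of likeness counts the bees in which a gene is at least 5 times its own median. For LOC100649715 the largest share of common bees belonged to LOC105665786, described as chymotrypsin-2, a serine protease of the kind that digests protein. It was high in 9 bees, 7 of which were among the 8 bees high in LOC100649715. Its levels were 127 CPM in H4 bee 1, 115 CPM in H4 bee 3, 104 CPM in H6 bee 6, 80.7 CPM in H2 bee 5 and 76.9 CPM in Wma3 bee 3, against a median of 3.63 CPM. Wma3 bee 2 had only 1.08 CPM of it. LOC100644237, described as subunit 9 of the cytochrome b-c1 complex of the respiratory chain, was high in 7 bees, all among the 9 high in LOC100649549. It had 357 to 1010 CPM in the 6 bees high in both, against 19.3 to 248 CPM in the 70 bees high in neither. The genes LOC100642821 and LOC100652047 were high in 8 bees each, all 8 of them high in LOC100649549. LOC100645344 was high in 7 bees, all 7 also high in LOC100649549, and reached 8570 CPM in H4 bee 1.

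**Figure D3:**
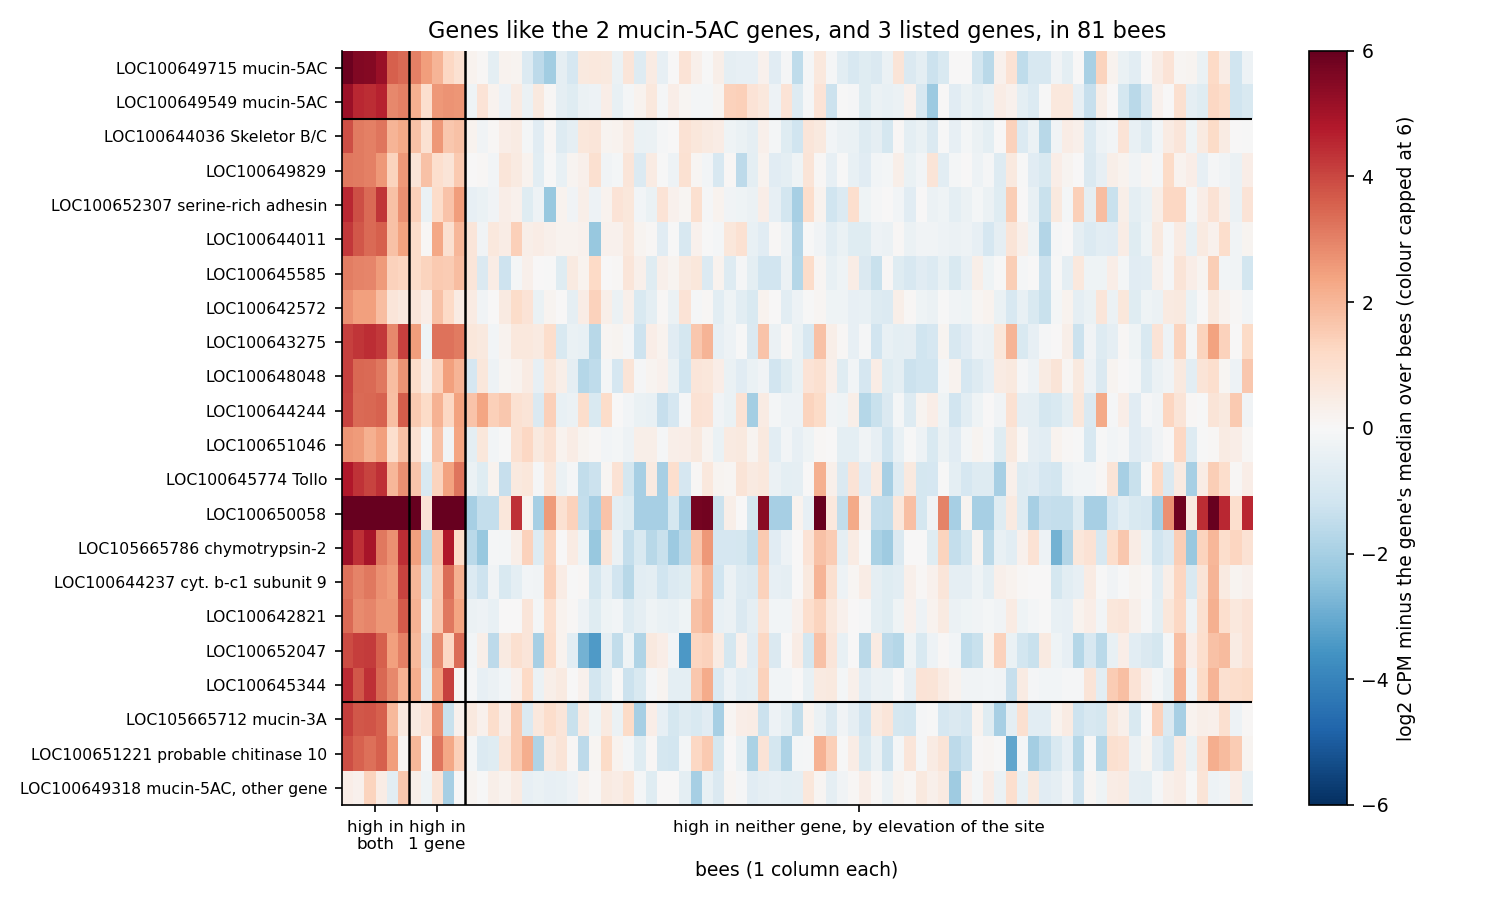
Log2 CPM minus the median of the gene over bees for the 2 mucin-5AC genes (top), the 17 genes named for their likeness (middle) and 3 listed genes (bottom), in 81 bees, 1 column each, with colours capped at 6. Columns run from the 6 bees high in both, through the 5 bees high in 1 gene, to the 70 bees high in neither, and the first 4 columns are the darkest in most rows.

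Of the genes that passed the filter, 18 beside the members were at least 5 times their own median in each of the 6 bees high in both. Of the genes that did not pass but had a median above 0, 6 more did so, LOC105666434, LOC100643861, LOC100643884, LOC100645188, LOC100647276 and LOC100644635, and they were named after their values were seen. In 12 of the 18 genes all 6 bees were above every bee high in neither. The 6 bees were not alike in how many genes stood out. Among 8768 genes with a median of at least 1 CPM, the number at 5 or more times the median was 87 in H4 bee 1, 79 in H4 bee 3, 118 in Wmb1 bee 1, 149 in Wmb3 bee 4, 155 in Wma3 bee 3 and 232 in H2 bee 5. The median over all bees was also 87, so the 2 bees from H4 were ordinary in this respect and H2 bee 5 had the highest number of all 81 bees. H6 bee 6 with 201 and Wmb1 bee 5 with 194 ranked 3 and 4. Wmb1 bee 5 and H2 bee 5 were the 2 shallowest libraries of the series.

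Other genes with mucin in their description were few, 5 in all, and 4 passed the filter. LOC100649318 also bears the description mucin-5AC isoform X1, but it lay between 0.264 and 4.46 CPM over the 81 bees with a median of 1.41 CPM, and no bee reached 5 times that median. Its correlations were 0.232 with LOC100649715 and 0.179 with LOC100649549. Its highest bees were nevertheless H2 bee 5 with 4.46 CPM and H4 bee 3 with 3.69 CPM, both high in the pair and above the 2.9 CPM that the bees high in neither reached. The other 4 bees high in both had 0.886 to 1.93 CPM, within the range of those bees. LOC100650591, described as mucin-5AC, LOC100651788, described as mucin-3A, and LOC100647739, described as mucin-3B-like, had correlations between -0.017 and 0.154 with the pair. The 6 bees high in both overlapped the other bees fully in all 3 genes.

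LOC105665712, a further gene described as mucin-3A, did not pass the filter on low counts, and its values near the median rest on few reads. It had 5.35 CPM in H4 bee 1, 4.08 CPM in H4 bee 3, 3.96 CPM in Wma3 bee 3 and 3.63 CPM in Wmb3 bee 4, against a median of 0.228 CPM over all bees. These are the same 4 bees that led the mucin-5AC genes. Wmb2 bee 4 had 2.05 CPM and Wmb1 bee 1 had 1.11 CPM, whereas H2 bee 5 had 0.378 CPM and H6 bee 6 had 0.042 CPM. The gene was high in 5 bees, all 5 of them high in at least 1 of the mucin-5AC genes, and had r = 0.646 and 0.64 with the pair.

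Chitin-binding and chitin-degrading proteins share the surfaces that mucins coat, and 7 such genes were listed by description. LOC100651221, described as probable chitinase 10, an enzyme type that breaks down chitin, was the only listed gene of the 11 tested that reached r = 0.5 with the pair, with 0.56 and 0.562. It had 72.1 CPM in H4 bee 1, 58.4 CPM in Wmb3 bee 4, 56.5 CPM in Wma3 bee 3 and 48.5 CPM in H4 bee 3, against a median of 4.81 CPM. All 7 bees in which it was high were also high in at least 1 mucin-5AC gene, while H2 bee 5 had only 5.14 CPM. The second gene described as probable chitinase 10, LOC100651214, lay between 5.17 and 39.8 CPM and had correlations of -0.075 and 0.028. The peritrophin-1 genes LOC100642795, LOC100642915 and LOC100643150, whose products bind chitin in the lining of the midgut, had correlations of 0.019 to 0.057, and the peritrophin-1 gene LOC100651311 was at a median of 0 CPM. The endochitinase LOC100645662 had -0.018 and 0.031. The O-glycan transferase LOC100646177, an enzyme that could add the first sugar of mucin chains, had -0.011 and -0.016.

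The belts were tested for these listed genes only, in edgeR, whose quasi-likelihood F test was run over all 9475 genes. Of the 13 listed genes, 11 could be tested. In the highland against the lowland 0 of the 11 passed an adjusted p under 0.05 with a log2 fold change of at least 0.5, beside 0.686% of all genes tested. In the highland against mid-elevation 0 of 11 passed, beside 0.211%, and at mid-elevation against the lowland 0 of 11, beside 0.369%. The edgeR fit counts bees as independent, although the belt is a property of the site. With counts summed per site, and with limma and site as a random block, 0 of all genes were called in each comparison. At an unadjusted p under 0.05 lay 17.4%, 15.1% and 15.9% of all genes tested with edgeR. The counts of listed genes were 0, 3 and 1 with edgeR, 0, 3 and 1 with DESeq2 without a fold-change prior, and 3, 0 and 1 with limma and site as a random block, in the same order of comparisons. The median log2 fold changes of the 11 genes were 0.32, 0.48 and 0.20, against 0.01, 0.005 and -0.001 over all genes.

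Probable chitinase 10 (LOC100651221) came closest. It averaged 6.58 ± 6.31 CPM in highland bees (SD, n = 26) and 16.2 ± 21.4 CPM in mid-elevation bees (SD, n = 25), a log2 fold change of -1.30 ± 0.398 (SE) with an adjusted p of 0.114 in edgeR. Mid-elevation bees against lowland bees, which averaged 7.1 ± 6.21 CPM, gave a log2 fold change of 1.19 ± 0.38 with an adjusted p of 0.124 in edgeR. The medians were 5 CPM in lowland, 4.79 CPM in mid-elevation and 4.71 CPM in highland bees. A fit without the 11 bees high in a mucin-5AC gene was added after the data were seen. Its outcome for genes high in those bees was set in part by leaving them out, so no conclusion is drawn from it. In that fit 0 listed genes had an unadjusted p under 0.05 in edgeR in the highland against mid-elevation. At mid-elevation against the lowland 1 did, the same number as with all bees. All 7 bees in which LOC100651221 was high are among the bees left out, and the mid-elevation ones raised its mean in that belt.

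Because each library holds the RNA of a whole thorax and abdomen, fewer cells of a type and less RNA per cell cannot be told apart. Marker lists made by description were set beside the pair, over the 81 bees. The 11 genes of the gut list that passed the filter, digestive proteases, maltase and peritrophins, had a median correlation of 0.019 with LOC100649715 and 0.035 with LOC100649549. Chymotrypsin-2 (LOC105665786), named above for its bees in common with the pair, belongs to this list and was its only gene at 0.5 or more, with 0.562 and 0.571. The summed CPM of the list, with the gene that did not pass included, was 218 in H4 bee 1, 300 in H4 bee 3, 5320 in H2 bee 5, 49600 in Wmb1 bee 1, 53300 in Wma3 bee 3 and 58500 in Wmb3 bee 4, against 24.5 to 90700 in the 70 bees high in neither. The 4 bees that led the mucin-5AC genes were thus found both at low and at high summed gut signal, although the gut had been removed before extraction. Chymotrypsin-2 (LOC105665786) alone had 24.6 to 127 CPM in the 6 bees high in both and at most 22.2 CPM in the 70. The part of gut RNA in the result was not tested.

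Muscle genes had weak positive correlations with the pair. The 16 tested genes of that list had a median correlation of 0.175 with LOC100649715 and 0.179 with LOC100649549, and none reached 0.5. The list, made by description, also holds a non-muscle myosin heavy chain, LOC100649130, with -0.028 and -0.056. The summed CPM of the list, with the gene that did not pass included, was 6980 to 36300 in the 6 bees high in both. Their ranks were from 2 to 23 of 81, and the 70 bees high in neither had 2370 to 22100 CPM. The highest sum, 45800 CPM, was in Wmb1 bee 5. The part of muscle RNA in the result was not tested.

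The 7 cuticle genes had median correlations of 0.032 with LOC100649715 and 0.012 with LOC100649549. Those of the 9 venom and silk gland genes were 0.056 and 0.005, of the 12 testis, meiosis and axoneme genes -0.016 and 0.008, of the 4 immune genes -0.032 and -0.056, and of the 3 fat body genes -0.155 and -0.067. The single genes that passed the filter in the ovary and chemosensory lists had 0.014 and -0.10 with LOC100649715 and -0.121 and -0.245 with LOC100649549. The other gene of the ovary list, LOC100644635, described as chorion peroxidase, an enzyme known in Drosophila for hardening the eggshell, did not pass the filter on low counts and so was not ranked among the most like genes, but had r = 0.81 and 0.781. It had 18.2 CPM in Wmb3 bee 4, 15.8 CPM in H4 bee 1, 11.8 CPM in H4 bee 3 and 9.4 CPM in Wma3 bee 3, against a median of 0.171 CPM. It was high in 9 bees, 8 of them high in at least 1 mucin-5AC gene, and the 6 bees high in both all lay above the 70 bees high in neither, which reached 0.865 CPM. The summed CPM of the list was 25.2 to 62.7 in the 6 bees and 16.5 to 216 in the 70. This sum was mostly LOC100645309, described as vasa, with a median of 47.1 CPM over all bees. Its overlap therefore says little about LOC100644635.

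The 1 haemocyte gene, LOC100643921, had 0.416 and 0.479. Its level was 3.72 to 6.38 CPM in the 6 bees high in both and 1.38 to 7.31 CPM in the bees high in neither, so the sets overlapped, and its part was not tested.

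**Figure D4:**
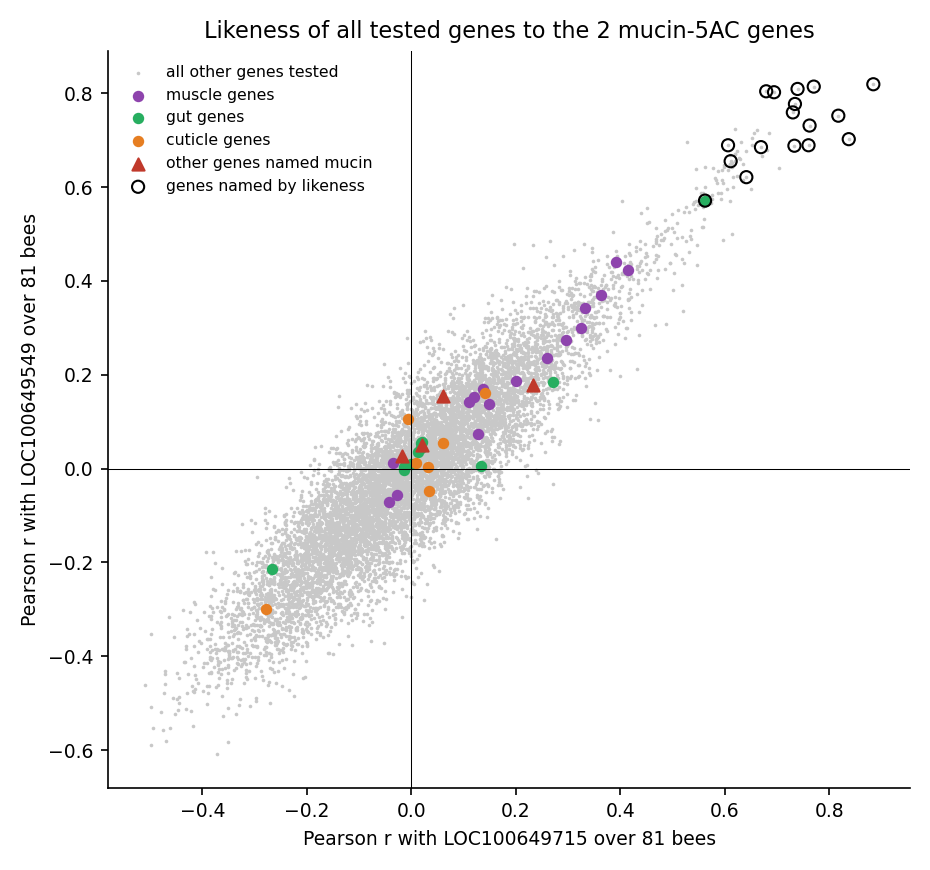
Pearson correlation of each tested gene with LOC100649549 (vertical axis) against its correlation with LOC100649715 (horizontal axis), over 81 bees, with muscle, gut and cuticle genes, other genes named mucin and the genes named for their likeness marked. The 4 other mucin genes that passed the filter lie near the middle, with correlations of at most 0.232 and 0.179, and muscle genes reach 0.414 and 0.441. LOC105665712, described as mucin-3A, did not pass the filter and is not shown, and it had 0.646 and 0.64.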

How the data were processed

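Per the methods of the study, reads were trimmed with Cutadapt 2.5, aligned with STAR 2.7.2b to the Bombus terrestris assembly and counted by strand on exons with featureCounts 1.6.4. The authors deposited estimated counts without normalization, with reads matching several places as fractions, so that 28.5% of values are not whole (17 of 81 for LOC100649715 and 59 of 81 for LOC100649549). Exon lengths were also deposited. Counts were rounded, filtered with filterByExpr of edgeR 4.0.16 and scaled with TMM in R 4.3.3. CPM used the scaled library sizes, and log2 CPM a prior count of 2. Belts were fitted in 1 model over all bees with Benjamini-Hochberg adjustment over all genes tested. The SE of a log2 fold change is its size over the root of the F statistic. Bees counted as independent, and limma 3.58.1 put the correlation within sites at 0.105. Alternatives used DESeq2 1.42.0 and limma. The edgeR step was tested on simulated data.

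The members and lists were chosen with earlier results of these data known. Named were the members, other mucin genes, per member the 10 genes with the highest correlation and the 5 with the largest share of common high bees (at least 3 such bees), and the 3 neighbours on each side. Descriptions covered 1777 genes. Contigs are named by accession alone, so positions are not given. RNA integrity per bee was not analysed here.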

Additional observations from a re-analysis of the deposited data

Results flagged for a closer look

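Within sites of 4 to 10 bees, the gap between the extreme bee and its nearest neighbour was set against the whole range of log2 CPM. These values describe genes chosen for bees of this kind and are no test of them. Of 30 pairs of site and gene, 5 exceeded the 95% critical value of Dixon. The usual rate of 1 in 20 groups does not apply to genes chosen in this way, so the number is not set against chance. LOC100649715 in Wmb1 bee 1 (14.7 CPM, next bee 2.17 CPM) had a gap of 0.747 of the range, and in H2 bee 5 (12.5 CPM, next bee 1.37 CPM) 0.793. LOC100649549 in H6 bee 6 (6.8 CPM, next bee 1.25 CPM) had 0.546. The remaining bees were low ones, LOC100649715 in T4 bee 3 (0.736 CPM, next bee 1.18 CPM) with 0.778 and in T5 bee 4 (0.861 CPM, next bee 1.72 CPM) with 0.857. The 4 highest bees of the series were not among them.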

How the results depend on the processing

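The 8 bees high in LOC100649715, 9 high in LOC100649549 and 6 high in both were the same numbers with DESeq2 size factors and with deposited totals. At 10 times the median, 4 bees were high in LOC100649549, and at 3 times the median 8 bees were high in both. Leaving out each bee number in turn gave 6 to 8, 7 to 9 and 4 to 6 bees. The correlation of the pair was 0.601 by Spearman ranks, 0.377 without the 11 bees high in either gene (an alternative added after the data were seen), 0.787 without the 2 bees farthest from the median of LOC100649715, and 0.818 to 0.855 with each bee left out. Of the 10 genes most like LOC100649715, 6 were kept by Spearman ranks and 5 without a filter, and of those most like LOC100649549 5 and 6. Of listed genes, highland against mid-elevation gave 1 call without a filter (LOC105665712) and 1 in DESeq2 with a fold-change prior (LOC100651221), where edgeR gave 0. With each site left out in turn, calls ranged from 0 to 1 in the highland against the lowland (LOC100647739 without T3), from 0 to 2 in the highland against mid-elevation (2 without Wmb2 or Wma6, 1 without Wma2, Wma3 or Wmb5), and from 0 to 2 at mid-elevation against the lowland (2 without Wmb2, 1 without Wmb1). The calls in these last comparisons were of LOC105665712 and LOC100651221, and the cause was not tested. Sites share bee numbers. Across sites, deviations from the site mean had a mean correlation of 0.029 between bees of the same number and -0.007 between other bees. Of 81 bees, 25 were most like their own number, and whether this exceeds chance was not tested. Only numbers held by at least 5 bees of other sites were compared, so H6 bees 6 to 9 could not match their own. With the number as a replicate block 0 listed genes were called in each comparison. Over all genes that fit called 98 in the highland against the lowland, 90 in the highland against mid-elevation and 16 at mid-elevation against the lowland. Without the block these were 65, 20 and 35. Near the median both genes rest on few reads, which limits small differences between bees.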

Other observations

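Genes beyond those named for their likeness were also at 5 or more times their own median in all 6 bees high in both mucin-5AC genes. The genes given here were chosen after their values were seen. LOC100645869, without a description, had 2330 to 7900 CPM in the 6 bees and at most 992 CPM in the 70 bees high in neither, with a median over all bees of 1.15 CPM, and it was high in 30 bees. LOC100643957, described as proline-rich protein 4, had 31.3 to 201 CPM in the 6 bees, against at most 29.3 CPM in the 70 others. LOC100644481, described as procyclic form-specific polypeptide B1-alpha after a trypanosome surface protein, had 39.8 to 171 CPM, against at most 22.8 CPM. LOC100644125, described as global transcription regulator sge1 after a fungal protein, had 22.6 to 77.7 CPM, against at most 18 CPM. Of the 18 such genes, 6 have a description.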
